A study of Rattus norvegicus with 22 samples.

Results

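The genes followed were Ddit4l, Hrasls, Doc2g, LOC690577, LOC688587, Alx1 and Asb9. They make up 7 of the 19167 gene names on the array, and each was taken by its name on the array with the brightest probe where a gene had more than 1. These genes were picked because their signal was much lower in rat oral squamous cell carcinoma (OSCC) than in normal tongue, so the difference between the tissues is given here only as a description, without a test. The question put to the data was whether each gene followed skeletal muscle (Ckm, muscle creatine kinase), the keratinized papillae of the tongue (Krt36, a hair-type keratin) or the basal layer of the epithelium (Krt15, a basal keratin) from rat to rat. Krt15 did not move with the other basal genes measured, as given below, so its relations stand for that gene only.

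The arrays came from 11 male F344 rats of about 33 weeks. All rats drank water with 4-nitroquinoline-1-oxide (4-NQO), a DNA-damaging carcinogen, at 20 ppm for 10 weeks, and tissue was taken 23 to 26 weeks after the first exposure. Each rat gave 1 piece of histologically proven OSCC and 1 piece of adjacent tongue that looked normal, so the normal pieces had met the carcinogen too, although the sample labels give them no treatment and call all 22 arrays untreated. A piece of tongue holds muscle, epithelium, nerve and vessels, and in such bulk tissue fewer cells of a type and less RNA per cell cannot be told apart.

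Ddit4l (also called Redd2) encodes a stress-induced inhibitor of the growth kinase complex mTORC1 and is known from skeletal muscle. Hrasls, now named Plaat1, encodes a phospholipid-handling acyltransferase of the LRAT-like family. Doc2g belongs to the Doc2 group of proteins with C2 domains, which in other members bind calcium and membranes during exocytosis. Alx1 is a paired-type homeobox factor of the embryonic face. Asb9 is an ankyrin repeat and SOCS box protein that brings creatine kinases to a Cullin-5 ubiquitin ligase. LOC690577 and LOC688587 are predicted genes. The array describes LOC688587 as similar to Speer4d, of a large rodent family named for its expression in developing sperm, and LOC690577 as similar to a mouse RIKEN cDNA of unnamed function.

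What each probe reads is fixed by its sequence, so the first 30 of the 60 bases of each probe are shown, 5′ to 3′.
Ddit4l: gccttaggcgaactctgatcctcagctcgg
Hrasls: ggtattgatatcttcacattccttggcttg
Doc2g: agctttgacatctgtctggagaagcggagg
LOC690577: gagaaacagcaatacatctgtgcttccaaa
LOC688587: atctccttgaggtctttctcctttctcata
Alx1: gaatggattccctgaaaggactgaataggt
Asb9: catcatcacagcagatcacgtgtctccact

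On the rat build rn4 that the array files use, the Ddit4l probe lies at chr3:51880477-51880536, Hrasls at chr11:73423293-73423352, Alx1 at chr7:41090571-41090630 and Asb9 at chrX:50726533-50726592. The Doc2g probe is placed at chr1:206587351-206587527, a span longer than its 60 bases. LOC690577 (chrUn:40369606-40369665) and LOC688587 (chrUn:31541941-31542000) lie on sequence that rn4 had not placed on a chromosome. RefSeq, on the newer build GRCr8, has Ddit4l on chromosome 2 and does not list the transcript the Ddit4l probe was named for. Which copy of that sequence the probe reads was not tested.

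Signals were log2 values over the 75th percentile of their array. The software marked a probe as well above background where its signal cleared the local background, and this held for 48.4% to 65.5% of probes on an array. Slide and tissue cannot be told apart, because the 3 slides with normal tissue held no OSCC and the 4 with OSCC held no normal tissue. Scanning took 2 days, the first for every normal array with the OSCC of rats 4 and 9, the second for the remaining 9. Of all 30367 probes, 6.97% were called lower and 6.86% higher in OSCC (adjusted p below 0.05 in limma and at least 2-fold), and 1.61% were lower by 2 log2 units or more. Of the 30299 probes with a value on every array, 5.26% were lower in all 11 pairs and 0.977% had all OSCC arrays below all normal arrays. Because the 7 genes were chosen on this contrast, these shares are background only.

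**Figure D1:**
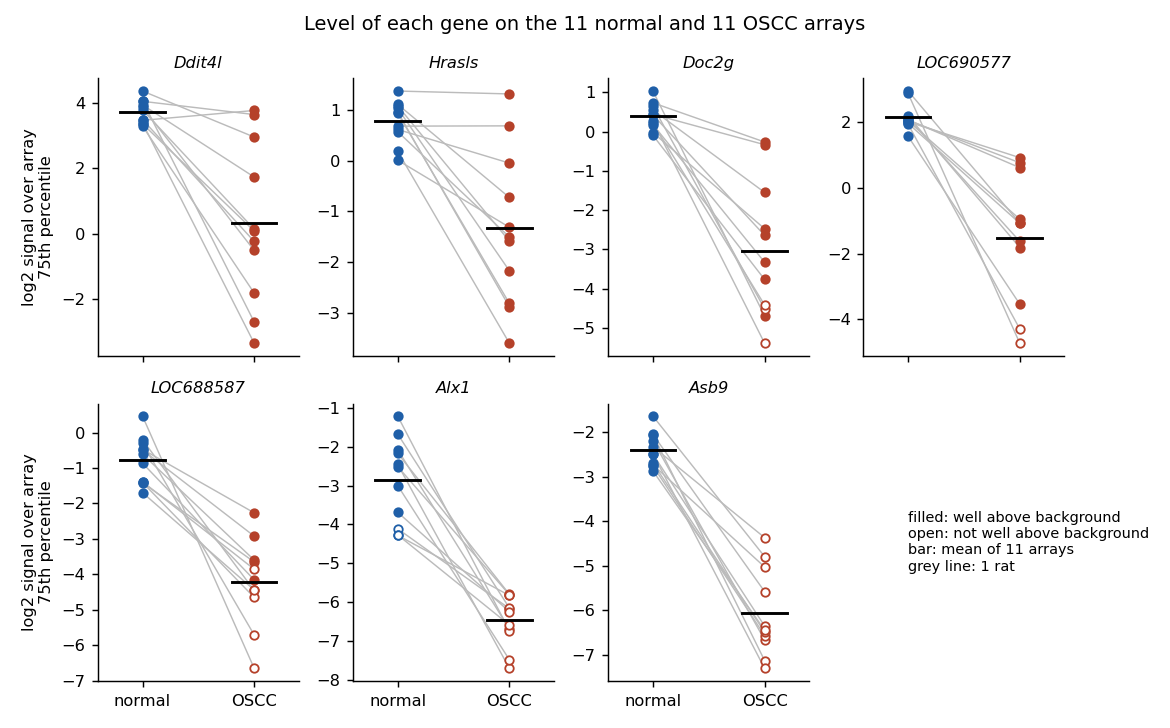
Level of each of the 7 genes (y axis: log2 signal over the array's 75th percentile, own scale per gene) on the 11 normal and 11 OSCC arrays, with grey lines joining the arrays of 1 rat, bars at the means and open points for signals not well above background. Ddit4l and Hrasls overlapped between tissues and the other 5 genes did not, and all 11 OSCC points of Alx1 and of Asb9 are open.

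In normal tongue Ddit4l was even from rat to rat, with a lowest level of 3.29, a median of 3.79 and a highest of 4.36. In OSCC it ran from -3.36 through a median of 0.077 to 3.77. The mean difference was -3.40 ± 0.63 (SE, n = 11 pairs), or 10.6-fold lower, and the signal was lower in 10 of 11 pairs. The OSCC of rats 21, 22 and 24 kept levels of 2.96, 3.64 and 3.77, inside or just under the normal range, while those of rats 13 and 25 were at -3.36 and -2.71.

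Hrasls had a lowest normal level of 0.0076, a median of 0.93 and a highest of 1.37, against -3.59, -1.50 and 1.31 in OSCC. Its mean difference was -2.10 ± 0.40 (SE, n = 11), or 4.29-fold lower, the smallest of the 7. Rats 22 and 24, whose OSCC stood out for Ddit4l, again had OSCC levels inside the normal range, at 0.68 and 1.31. A second probe of the gene gave a difference of -2.05.

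For Doc2g the normal levels ran from -0.095 through 0.42 to 1.03 and the OSCC levels from -5.39 through -3.32 to -0.26, with no overlap. The mean difference was -3.43 ± 0.48 (SE, n = 11), or 10.7-fold lower, and all 11 pairs were lower. On 3 of the 11 OSCC arrays Doc2g was not well above background.

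Over the rats these 3 genes moved with muscle. Ckm itself had pair differences from -5.19 to 0.77, with a mean of -2.19 ± 0.59 (SE), and was higher in OSCC than in normal tissue in rats 21, 22 and 24. The pair differences of Ddit4l correlated with those of Ckm at r = 0.98 (rho = 0.96), Hrasls at r = 0.96 (rho = 0.92) and Doc2g at r = 0.95 (rho = 0.92), each over 11 pairs. In two-sided permutation tests with 100000 resamples, adjusted over all 21 relations of the 7 genes with the 3 markers, p was 0.00021, 0.00035 and 0.00035 for r and 0.00063, 0.0014 and 0.0014 for rho; 1e-05 is the smallest unadjusted p these resamples can give, and Ddit4l reached it. No other of the 21 relations passed for r.

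**Figure D2:**
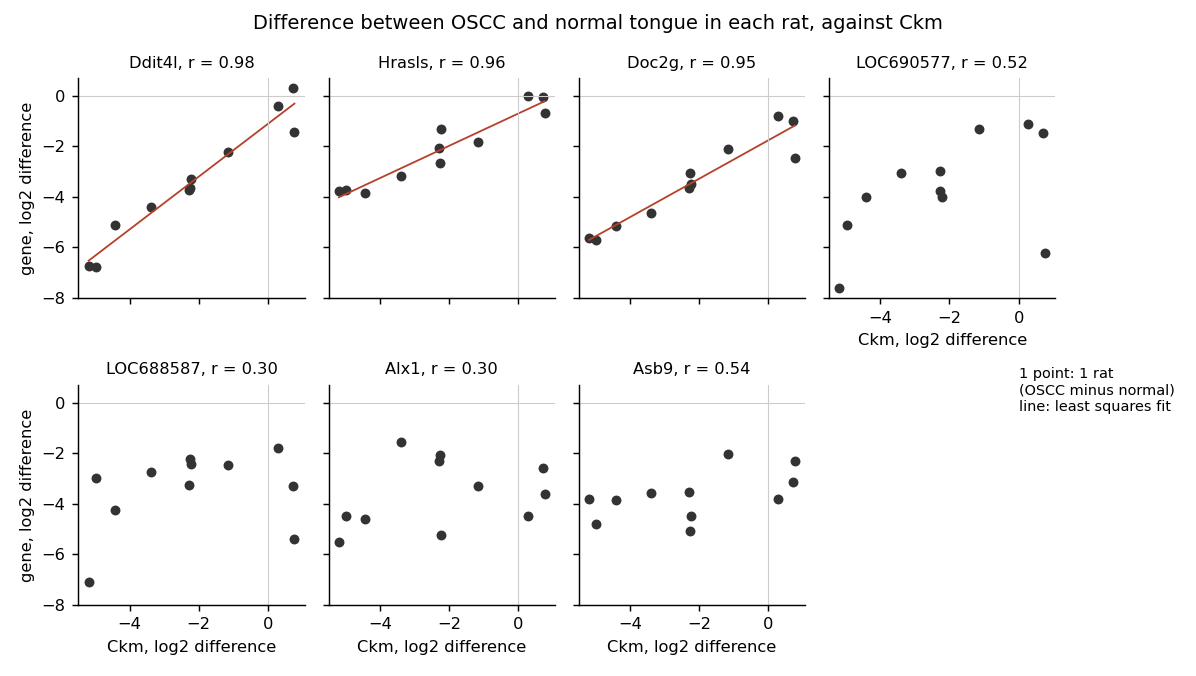
Log2 difference (OSCC minus normal) of each gene on the y axis against that of Ckm on the x axis, with 1 point for each of the 11 rats and a least squares line for Ddit4l, Hrasls and Doc2g. The points of these 3 genes lie along their lines (r = 0.98, 0.96 and 0.95), and those of the other 4 genes scatter (r from 0.30 to 0.54). No OSCC signal of Alx1 or Asb9 was well above background, so the order of their points is not reliable.

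Many other genes of the array followed Ckm as well. Of the 16970 probes well above background on at least 11 arrays, 4.04% had r of 0.9 or more with Ckm, and 0.660%, 1.47% and 1.64% reached at least the r of Ddit4l, Hrasls and Doc2g. Without the 2 pairs farthest from the median of Ckm (rats 21 and 24), r was 0.99, 0.94 and 0.99. Without rats 21, 22 and 24, in which Ckm was not lower, it was 0.98, 0.90 and 0.98. Within the 9 pairs whose arrays were scanned on different days it was 0.98, 0.98 and 0.95; the 2 pairs scanned on the same day are too few for a value.

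Slopes on Ckm are given as a description. For each log2 unit of Ckm, Ddit4l moved by 1.05 ± 0.079 (SE), Doc2g by 0.76 ± 0.082 and Hrasls by 0.64 ± 0.066. The fitted difference at no change of Ckm was -1.10 ± 0.24 for Ddit4l, -1.76 ± 0.25 for Doc2g and -0.70 ± 0.20 for Hrasls. The difference lay below that of Ckm in 11 of 11 pairs for Ddit4l and Doc2g and in 5 of 11 for Hrasls, which is a description, since the size of the difference chose the genes.

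With Krt36 and Krt15 the same 3 genes had r between -0.12 and 0.20. The difference between a gene's relations to a pair of markers was tested by correlating the gene with the difference of the standardized markers. Of 21 such tests none passed after adjustment (smallest adjusted p = 0.112, permutation), while 5 had an unadjusted p below 0.05, all of them Ckm against a keratin for these 3 genes. Without rat 22, 4 passed: Ckm against Krt36 for Ddit4l, Hrasls and Doc2g, and Ckm against Krt15 for Hrasls. With all 11 rats, a stronger relation with Ckm than with either keratin was therefore not shown for any gene by this test. An equal relation was not shown either. The test cannot decide between them, since even a gene equal to Ckm would correlate only in part with a difference that also holds the keratin. Its permutations also break the gene's link with both markers at once.

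Inside the OSCC arrays alone, levels of Ddit4l, Hrasls and Doc2g correlated with Ckm at r = 0.99, 0.96 and 0.91 (adjusted permutation p = 0.000105, 0.000105 and 0.00133, n = 11). These levels enter the pair differences and varied far more than the normal levels. The values therefore largely repeat the result over the pairs and are no separate evidence. Inside the normal arrays r was 0.38, 0.65 and 0.35 and none passed (adjusted permutation p = 0.428, 0.151 and 0.471, n = 11). Ckm varied much less there, with an SD of 0.36 over the normal and 2.13 over the OSCC arrays. Whether the relation differed between the tissues was not tested.

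The genes whose pair differences were most like those of the 3 genes, out of 11682 ranked, are named with their r as a description. For Ddit4l they were Slc25a34, a mitochondrial carrier (r = 0.99), Fsd2 (r = 0.98) and Acsl6, an acyl-CoA synthetase (r = 0.98). For Hrasls they were Fxyd1, a regulator of the sodium pump (r = 0.99), Lmod2, a thin filament protein (r = 0.99), and Kiaa0408L (r = 0.99). For Doc2g they were Itgb1bp2, the muscle integrin-binding protein melusin (r = 0.99), LOC691933 (r = 0.99) and Plin5, a lipid droplet protein of oxidative tissue (r = 0.98).

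Another quantity moved with this result. The log2 difference of the 75th percentile between the arrays of a pair, by which all signals were scaled, correlated with the pair differences of Ckm (r = -0.76, rho = -0.68), Ddit4l (r = -0.75, rho = -0.69), Doc2g (r = -0.73, rho = -0.66) and Hrasls (r = -0.67, rho = -0.57), with adjusted permutation p over 10 relations of 0.0305, 0.0305, 0.0344 and 0.0571 for r and 0.0773, 0.0773, 0.0773 and 0.141 for rho. Without the 2 pairs farthest from its median, r was -0.63, -0.64, -0.66 and -0.54. The largest of the 10 relations was that of Asb9, which had no OSCC signal well above background. Its r was -0.83 and its rho -0.87 (adjusted permutation p = 0.0163 and 0.0068), with r = -0.73 without those 2 pairs. LOC690577, LOC688587, Alx1, Krt36 and Krt15 did not pass. The part of this quantity in the relation with Ckm was not tested. Under the 5 other scalings and background corrections Ddit4l kept r of 0.93 or more and Hrasls of 0.90 or more with Ckm, while Doc2g had 0.68 after normexp, an alternative background correction, and no longer passed (adjusted permutation p = 0.202).

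Because Ddit4l, Hrasls and Doc2g moved together, the 250 bases before their starts are shown, from RefSeq on GRCr8. Both strands were searched for 4 motifs. The first was CAGCTG, a form of the E-box that myogenic factors bind, and the next was CACCTG, another E-box form. The third was the TATA box as TATAAA, and the last was the Sp1-type GC box as GGGCGG. Capitals mark the matches, which do not overlap, in the letters of the printed strand, so that an E-box found on the opposite strand stands in its reversed and complemented form.
Ddit4l, chr2:228801457-228801706, plus strand: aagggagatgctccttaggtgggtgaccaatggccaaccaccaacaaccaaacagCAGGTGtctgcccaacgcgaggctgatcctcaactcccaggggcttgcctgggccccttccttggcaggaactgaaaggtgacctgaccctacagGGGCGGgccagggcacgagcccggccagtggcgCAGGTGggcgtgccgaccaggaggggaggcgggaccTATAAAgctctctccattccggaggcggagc
Hrasls (Plaat1), chr11:85040967-85041216, minus strand: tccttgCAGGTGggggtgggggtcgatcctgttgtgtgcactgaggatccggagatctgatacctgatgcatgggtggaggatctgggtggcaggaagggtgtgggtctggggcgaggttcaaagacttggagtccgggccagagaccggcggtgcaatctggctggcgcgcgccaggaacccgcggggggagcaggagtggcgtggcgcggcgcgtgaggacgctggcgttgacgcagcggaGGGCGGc
Doc2g, chr1:210725578-210725827, plus strand: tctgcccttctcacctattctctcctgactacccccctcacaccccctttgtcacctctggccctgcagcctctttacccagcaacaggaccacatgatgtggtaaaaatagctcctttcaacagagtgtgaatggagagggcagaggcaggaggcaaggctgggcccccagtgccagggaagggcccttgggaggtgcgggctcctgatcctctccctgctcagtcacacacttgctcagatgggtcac

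The Ddit4l window held CACCTG at 2 places, TATAAA from base 31 to base 26 before the start, and GGGCGG once. The Hrasls window held CACCTG and GGGCGG once each, and the Doc2g window held none of the 4. Of all 33469 promoters, 12.0% held CAGCTG, 15.9% CACCTG, 12.9% TATAAA and 30.5% GGGCGG in the same window. CG pairs numbered 11 for Ddit4l, 21 for Hrasls and 1 for Doc2g, against a median of 5 over all promoters. The study's forward primers for its promoter methylation assays begin 135 bases before the RefSeq start of Ddit4l and 147 bases before that of Hrasls. For Ddit4l this is not the start the study counted from. The methylation measurements were not analysed here. Of the 7 genes, 4 had a promoter entry (Alx1 as well), and LOC690577, LOC688587 and Asb9 had none.

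LOC690577 had normal levels from 1.57 through a median of 2.06 to 2.95, and OSCC levels from -4.73 through -1.07 to 0.92. The groups did not overlap, and the mean difference was -3.69 ± 0.56 (SE, n = 11), or 12.9-fold lower. LOC688587 went from a lowest normal level of -1.69, a median of -0.61 and a highest of 0.46 to -6.65, -4.15 and -2.26 in OSCC, again with no overlap and with a mean difference of -3.45 ± 0.43 (SE, n = 11), which was -1.59 after normexp. It was well above background on all 11 normal but only 5 OSCC arrays, and LOC690577 on 11 and 9. In rats 13 and 21 neither gene was well above background in OSCC, and LOC688587 was not in rats 11, 16, 17 and 26 either. The sizes of those pair differences rest on signals whose order is not reliable. Most pair differences of LOC688587 are of this kind, so its relations over the pairs are uncertain.

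These 2 genes moved together over the pairs (r = 0.83, n = 11, a description). With Ddit4l, Hrasls and Doc2g, LOC690577 had r of 0.65, 0.50 and 0.70 and LOC688587 of 0.38, 0.32 and 0.44. With Ckm r was 0.52 for LOC690577 and 0.30 for LOC688587, and with Krt36 it was 0.22 and 0.39. Of the brighter probes, 3.85% had r of 0.5 or more with Krt36 and 5.33% with Krt15. With Krt15, which was lower in OSCC in all 11 pairs (mean difference -2.54 ± 0.23, SE), r was 0.67 (rho = 0.67) and 0.69 (rho = 0.78). Neither r passed after adjustment (adjusted permutation p = 0.108 and 0.103, n = 11), and for rho only LOC688587 did (adjusted permutation p = 0.118 and 0.0342). That pass rests in part on OSCC signals that were not well above background. Without rat 21 the relation of LOC690577 with Ckm was r = 0.87 and passed (adjusted permutation p = 0.00415), and without rat 24 that with Krt15 was r = 0.80 and passed (adjusted permutation p = 0.030). Without rat 13, LOC688587 with Krt15 had r = 0.84 and passed (adjusted permutation p = 0.0127). With the mean of the 9 basal epithelium genes in place of Krt15, r turned to -0.51 for LOC690577 and to -0.17 for LOC688587, and neither passed (adjusted permutation p = 0.323 and 0.688, n = 11).

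**Figure D3:**
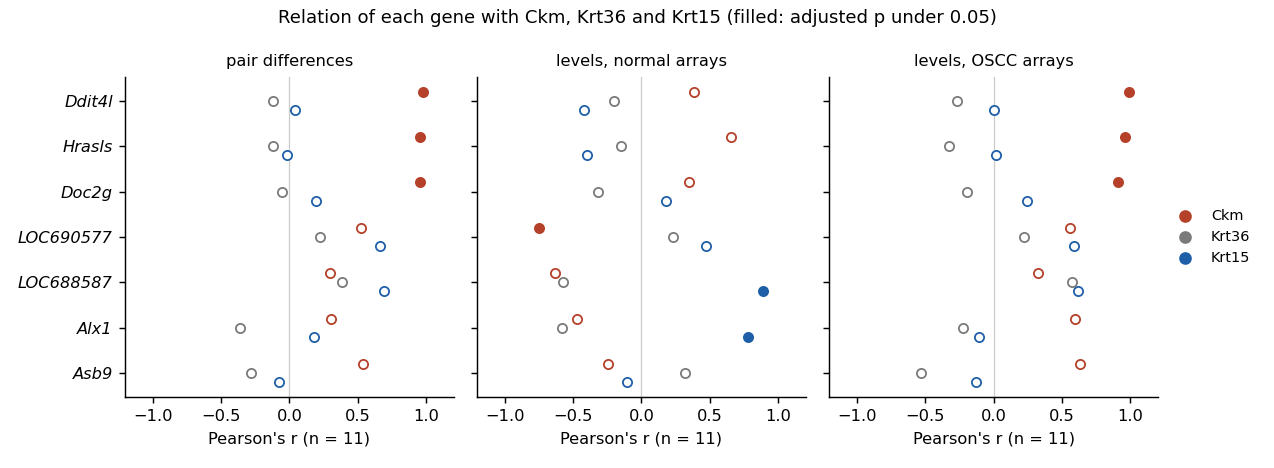
Pearson's r (x axis, n = 11 for every point) of the 7 genes (y axis) with Ckm, Krt36 and Krt15, from left to right for the pair differences, for the levels on the normal arrays and for the levels on the OSCC arrays; filled points have an adjusted permutation p below 0.05. Ckm is filled for Ddit4l, Hrasls and Doc2g in the pair differences and the OSCC arrays, while in the normal arrays LOC688587 and Alx1 are filled for Krt15 and LOC690577 for Ckm with a negative r.

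Relations over the normal arrays played no part in the choice of the genes. Over the 11 normal arrays LOC688587 rose with Krt15 (r = 0.89, rho = 0.91, adjusted permutation p = 0.00924 and 0.0063), and this held without any 1 rat (r from 0.86 to 0.92) and with slide means subtracted (r = 0.86, adjusted permutation p = 0.0145). After normexp r was 0.78 and did not pass (adjusted permutation p = 0.109). LOC690577 had a negative relation with Ckm there (r = -0.75, adjusted permutation p = 0.0445, n = 11; rho = -0.62, adjusted permutation p = 0.233), which kept its pass in only 3 of the 11 runs that left out 1 rat each (without rat 21, 24 or 26) and was lost with slide means subtracted (r = -0.69, adjusted permutation p = 0.0963).

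The 2 genes were not alone. By its description in the array files, 51 probes belong to the Speer-like genes or to those similar to the same RIKEN cDNA, a grouping made after the values were seen. Apart from the 3 probes of LOC690577 and LOC688587 there were 48, of which 28 were called lower, beside 6.97% of all probes. Over the 48 the median difference was -1.93, against -0.24 over all probes on the array, and some of the probes read the same transcript. Of the 48 probes, 15 cleared the background on every normal array, and 13 of these were called lower, with a median difference of -2.67. Another 18 cleared it on no normal array, and 2 of these were called lower, with a median of -0.57. Choosing probes by their normal signal favours a fall in OSCC, and a probe near background has little room to fall. The share called among all probes of the array chosen in the same way was not counted, so these counts are a description only. LOC501307, at -0.26, was well above background on all 22 arrays and was not called.

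**Figure D4:**
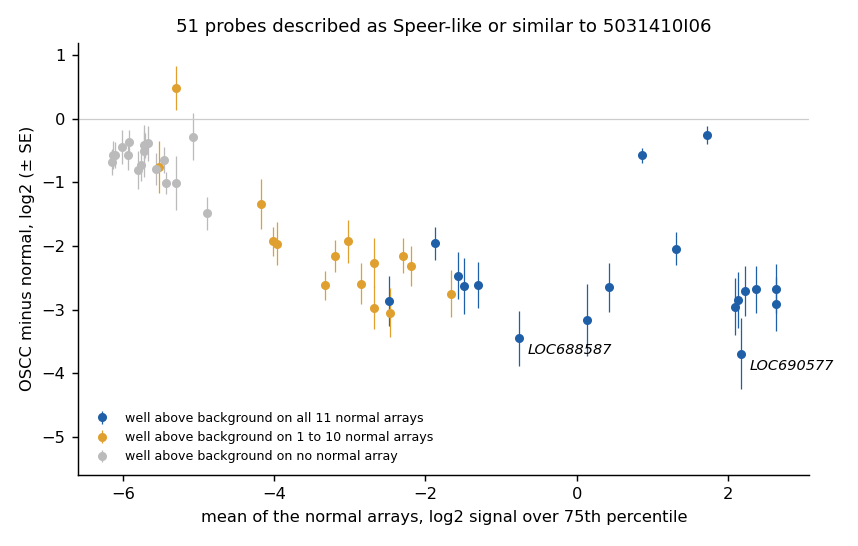
Each of the 51 probes described as Speer-like or similar to the RIKEN cDNA, with its mean on the 11 normal arrays (x axis, log2 signal over the 75th percentile) and its difference OSCC minus normal (y axis, log2, bars ± SE of limma), coloured by the number of normal arrays on which it was well above background. Of the probes above background on all normal arrays, LOC690577 and LOC688587 lie lowest, at -3.69 and -3.45, and LOC501307 lies highest, at -0.26.

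The pair differences of the 48 probes correlated with LOC690577 at a median r of 0.74 and with LOC688587 at a median of 0.53. Over the 15 brighter ones these medians were 0.94 and 0.81, given as a description. With Krt15 the median over the 48 was 0.30, with Ckm 0.57 and with Krt36 0.013. Over the 30299 probes with a value on every array the medians were -0.055, 0.40 and -0.11. The 15 brighter ones had medians of 0.62, 0.48 and 0.28. Over the 16970 probes well above background on at least 11 arrays the medians were -0.052, -0.027 and -0.030. For the 18 above background on no normal array the median with Ckm was 0.71. The closest genes to LOC690577 were LOC501234 (r = 0.98), LOC688302 (r = 0.98), described as Speer4d-like, and LOC690974 (r = 0.98). Those closest to LOC688587 were RGD1565104 (r = 0.95), LOC690659 (r = 0.93) and LOC690977 (r = 0.92), the last described as similar to the RIKEN cDNA. The values for LOC688587 carry its OSCC signals that were not well above background.

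Genes of this family can be near copies of each other, so a probe can read more than 1 of them. Among the 48 other probes none shared more than 25 of 60 bases with the probe of either gene in any ungapped alignment. This compares probes with probes, so it cannot tell whether a probe also binds the transcript of another gene. The 2 probes named for LOC688587 overlap by 38 bases, of which 37 are equal, so they are not independent; a stretch of the overlap is shown with the differing base in capitals.
LOC688587 brighter probe: atctcCttgaggtctttctcctttctcata
LOC688587 other probe: atctcAttgaggtctttctcctttctcata
The second of these gave a difference of -2.47, against -3.45 for the first. Which transcripts each probe binds could not be looked up here, so both genes are uncertain as single loci.

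Alx1 was dim. Its normal levels ran from -4.28 through -2.51 to -1.21, and it was well above background on 8 of 11 normal and on 0 of 11 OSCC arrays. In OSCC the signal, whose measured mean was -6.48, was a stand-in value set by the software on 8 arrays, so the OSCC values have no order and only a limit can be given. Each OSCC array was set at its dimmest signal that was well above background, or at the gene's own signal where that was higher. Set against the mean of all 11 normal arrays, this put Alx1 at least 3.19-fold lower. That limit holds only for the processing used here, since after normexp the difference was -1.03 on the log2 scale. Normal rats 4, 11, 13, 17, 21 and 22 had Alx1 at -2.51 or higher, and rats 9, 16 and 26 were not above background.

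Over the pairs Alx1 had r of 0.30 with Ckm, -0.36 with Krt36 and 0.18 with Krt15, and none passed. These values carry the unordered OSCC signals, so they say nothing of the relation, and no closest genes are given. Over the normal arrays alone Alx1 rose with Krt15 (r = 0.78, rho = 0.85, adjusted permutation p = 0.0445 and 0.0189, n = 11). The call for r was lost in 9 of the 11 runs that left out 1 rat each, all but those without rat 17 or 24, with r from 0.72 to 0.85. It was also lost after scaling to the array median (r = 0.73, adjusted permutation p = 0.0687) and after normexp (r = 0.35, adjusted permutation p = 0.491). Over the 8 normal arrays on which Alx1 was well above background, r was 0.49 (exact permutation p = 0.214).

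Asb9 was dim too, and more even. Its normal levels lay between -2.87 and -1.64 with a median of -2.48, well above background on all 11 arrays, while 0 of 11 OSCC arrays had it above background. By the same limit it was at least 4.41-fold lower in OSCC, where the measured mean was -6.06. This limit too holds only for the processing used here, since after normexp the difference was -0.98 on the log2 scale. Of the 30299 probes with a value on every array, 10 were above background on 8 or more normal arrays and on no OSCC array, Alx1 and Asb9 among them. Both genes were chosen for their fall in these samples, so this is a description only.

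Over the pairs Asb9 had r of 0.54 with Ckm, -0.28 with Krt36 and -0.078 with Krt15, and none passed (adjusted permutation p = 0.299, 0.718 and 0.944, n = 11). None of the 11 OSCC signals in these pair differences was well above background, and 2 of them were stand-in values. Their order is not reliable, so these values say nothing of the relation, and no closest genes are given. An r of at least 0.5 with Ckm was held by 26.7% of the brighter probes. Over the normal arrays, on which Asb9 was measured, r was -0.24 with Ckm, 0.32 with Krt36 and -0.10 with Krt15, and none passed (adjusted permutation p = 0.617, 0.48 and 0.762, n = 11).

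The relatives and partners of the 7 genes were counted in the fit over all probes, and 16 were called in all. With scan day as a term 0 of them were called, and after normexp the lists held 9 called genes. Of the 17 other Asb genes measured, 8 were called lower and 0 higher, beside 6.97% and 6.86% of all probes, with a median difference of -0.85 against -0.24. After normexp 4 were called lower. Asb12 fell by 2.71, Asb16 fell by 2.48 and Asb10 fell by 2.38 on the log2 scale (limma adjusted p = 0.0053, 0.0101 and 0.012), in 9, 8 and 8 of 11 pairs. Of the 17, 7 had r of 0.9 or more with Ckm, among them these 3 (r = 0.99 each). Asb9 could not be set beside them, since only a limit is known for it.

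**Figure D5:**
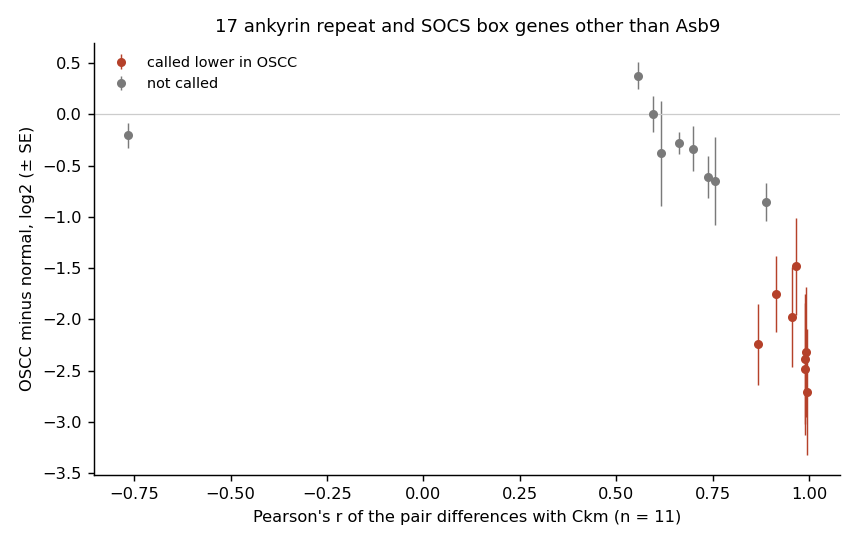
Each of the 17 Asb genes other than Asb9, with Pearson's r of its pair differences with Ckm on the x axis (n = 11 pairs). The y axis gives the difference OSCC minus normal (log2, bars ± SE of limma). Asb9 is left out because none of its OSCC signals was well above background. The 8 called genes lie at r of 0.87 or more.

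Among the ligase partners of Asb9 and the creatine kinases, 2 of 8 were called lower: Ckm and Ckmt2, the mitochondrial enzyme of striated muscle, which fell by 3.06 (limma adjusted p = 0.0028, lower in 10 of 11 pairs). Cul5, Rnf7 and both elongins were not called. Of 14 paired-type or related homeobox genes, 4 were called lower and 0 higher. Msx2, a homeobox factor of the developing face and skin, fell by 2.83 (limma adjusted p = 0.0002) in 11 of 11 pairs and was above background on all 11 normal arrays.

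Of 5 LRAT-like acyltransferases and relatives measured beside Hrasls, Pla2g16, a phospholipase of adipose tissue, fell by 1.36 (limma adjusted p = 0.0037, lower in 10 of 11 pairs) with r = 0.97 to Ckm, and Fam84b rose by 1.13 (limma adjusted p = 0.004, higher in 10 of 11). The call of Fam84b was lost under quantile normalization, scaling to the array median, normexp and scan day as a term. None of 17 measured genes of mTORC1 control and its stress inputs was called, the extremes being Sesn1 at -0.88 and Sesn2 at 0.84; Ddit4, the closest relative of Ddit4l, differed by 0.14. None of 21 genes of the C2 domain exocytosis group was called, but only 8 of them were well above background on 50% of the arrays or more.

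For the compartments themselves, 9 of 12 measured muscle genes and 10 of 12 papilla and hair keratin genes were called lower and none higher, and of 9 basal epithelium genes 1 was called higher and 1, Krt15, lower. The list means in place of the single markers gave the 3 genes r of 0.93, 0.94 and 0.91 with muscle. With the mean of the basal list Ddit4l, Hrasls and Doc2g had r of -0.82, -0.81 and -0.81, all past the threshold (adjusted permutation p = 0.00063, 0.000682 and 0.000756, n = 11), where Krt15 alone gave 0.044, -0.015 and 0.20. The basal list and Krt15 thus gave different answers for these genes. With the other genes of that list Krt15 itself had r over the pairs from -0.33 (Itga6) to 0.15 (Col17a1), with 0.034 for Krt5 and -0.048 for Krt14. A relation with Krt15 is therefore not one with the basal layer as a whole. Other tissue markers moved too: 7 of 8 genes of Schwann cells and nerve were called lower, while 6 of 7 leukocyte genes, 4 of 7 fibroblast genes and 7 of 7 gland genes were called higher. Their part in the values of the 7 genes was not tested.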

How the data were processed

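Total RNA of 22 tissue pieces was hybridised to one-color Agilent rat arrays. The authors used Feature Extraction (version 9.5.3.1 per the file headers), and the deposited intensity is its background-subtracted processed signal. The authors also deposited a linear ratio, the signal over the array's 75th percentile. Here control spots and 9196 outlier spots (0.975%) were left out, log2 signals were averaged per probe, and the array's 75th percentile was subtracted. The difference between the tissues was fitted with limma 3.58.1 (R 4.3.3), rat being a block, and Benjamini-Hochberg adjustment over 30367 probes; both tissues came from 1 rat per the labels, and deviations from the tissue means of the arrays of a rat correlated between -0.21 and 0.24. Relations used Pearson's r and Spearman's rho with permutation tests. A probe was above background on an array where at least 50% of its spots were. The precision is limited by the number of arrays. The limma fit and the permutation test of Pearson's r were tried on simulated data. Spearman's rho and the test of differences between relations were not. Named genes were the members, the 3 markers, the 3 genes closest to each member measured in OSCC and up to 3 called genes of a list each way. The members, lists and tests were chosen with earlier results of these data known. Array symbols were updated through RefSeq accessions (Krt36 is on the array as Krt1-5). Alternatives were other scalings, normexp, the authors' ratio, no rat block, slide, scan day, a filter on dim probes, the methods' paired test and leaving out rats. Values of some list genes are not reported here.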

Additional observations from a re-analysis of the deposited data

How the results depend on the processing

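All 7 genes had a lower mean in OSCC, by at least 2-fold, under each of the 23 alternatives, except that Asb9 was at -0.98 after normexp. The number of probes called, 4201, ranged from 3649 to 4799 without 1 rat each, and was 1701 after normexp, 2715 among probes above background on all arrays of a tissue, 6924 without rats 21, 22 and 24, and 13265 from the 2 pairs scanned on 1 day. With scan day as a term 3 probes were called. Without the replicate block it was 4227. Lower calls made up 50.4% of calls, 67.2% with scaling to the array median and 42.7% with the percentile over probes above background everywhere. Among the lists of relatives 16 genes were called, 9 after normexp, 0 with scan day as a term and 31 from the pairs scanned on 1 day, with 15 to 19 without 1 rat each. Of the 21 relations 3 passed, 3 to 4 without 1 rat each and 6 with the means of the marker lists. Of the 21 differences between relations 0 passed, 0 to 4 without 1 rat each (4 without rat 22) and 3 with the list means. With the basal list, r reversed to -0.82 for Ddit4l and to -0.81 for Doc2g, and turned to -0.51 for LOC690577 and to -0.17 for LOC688587. Over the normal arrays, in alternatives chosen after seeing the data, 3 relations passed, 1 with scaling to the array median, 0 after normexp and 1 to 4 without 1 rat each; LOC690577 with Ckm had r of -0.75 there, the reverse of the pairs. The causes were not tested. Dim signals limit Alx1, Asb9 and LOC688587.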
